A study of Mus musculus with 4 samples.

Results

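Ahnak encodes a giant scaffold protein of the cell cortex, and nearly all of its coding sequence lies in 1 very large exon. Its binding by the splicing factors SRSF1 and SRSF2 was described here from 145 peaks, 58 of SRSF1 and 87 of SRSF2, among 107319 peaks in both lists. The gene was chosen on its peaks in these lists, with their number, density, scores, overlap and the share of SRSF1 among them in view. Those values, and comparisons of them with other units, are therefore given as a description and not as findings. Its members were all plus-strand peaks at chr19:9063500-9151500 (mm9), whatever name the authors gave them. All 145 bore the name of the same unnamed cluster, which had no peak outside the interval, and the minus strand of the interval held 0 peaks in either list.

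The peaks came from CLIP-seq in mouse embryonic fibroblasts (MEFs), in which ultraviolet light crosslinks a protein to RNA and the RNA that is precipitated with the protein is sequenced. SRSF1 was measured in an SRSF1 tet-repressible line and SRSF2 in an SRSF2 tet-repressible line, both grown without tetracycline and both precipitated with an antibody against the HA tag. The 2 libraries used here had no siRNA treatment. Each protein was measured only in its own line, so effects of the protein and of its line cannot be told apart. There was 1 library per protein, so no value below has a replicate error, no difference between the proteins was tested, and intervals cover counting error only. Read depth is unknown, and RNA levels were not measured, so strong binding and abundant RNA cannot be told apart.

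SR proteins carry an RNA recognition domain and a tail rich in arginine and serine. They bind exonic enhancer sequences and recruit the spliceosome to nearby splice sites, and they also accompany the mRNA in later steps such as export and translation. AHNAK is a largely structural protein whose centre consists of many copies of a repeated unit. Its carboxyl end binds the S100A10 and annexin A2 complex at the plasma membrane, and fibroblasts and epithelial cells are known to make it in large amounts.

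The repeats are visible in the reference transcript, which is from GENCODE release M21 on GRCm38 and not on the build of the peaks. That transcript, Ahnak-202, is 18100 nt long in 5 exons, and exon 5 alone has 17498 nt. Exon 5 carries 16623 of the 16968 coding nt (98.0%) but covers only 19.97% of the 87.6 kb annotated for the gene. That length is for all transcripts of the gene together and need not be the extent of Ahnak-202. The encoded protein of 5656 residues was most similar to itself at a shift of 128 residues, with 32.7% identical positions against a median of 8.65% over shifts of 20 to 300 residues. The coding sequence gave the corresponding shift of 384 nt, with 46.4% identity. To show how alike the copies are, 4 copies spaced 384 nt apart are printed 5′ to 3′, with their positions counted from the start codon and with capitals at the 7 of 60 columns where copies differ.
Copy from 9763 to 9822: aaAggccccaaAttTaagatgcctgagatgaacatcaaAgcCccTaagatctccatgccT
Copy from 10147 to 10206: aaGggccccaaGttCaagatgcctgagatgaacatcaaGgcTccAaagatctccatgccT
Copy from 10531 to 10590: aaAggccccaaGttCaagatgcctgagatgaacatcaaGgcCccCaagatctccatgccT
Copy from 10915 to 10974: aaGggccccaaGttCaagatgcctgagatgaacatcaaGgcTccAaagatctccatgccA

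All 7 differing columns are at the third position of a codon, and the 4 copies encode the same 20 residues. The copies were selected on their likeness, as the window with most identical columns. Some words are shared exactly by many copies. The most frequent 30-nt word of the coding sequence, ttgatgtctcaggacccaaggtggacattg, occurs 14 times between positions 3839 and 13405, often 384 or 378 nt apart. The longest exact repeat has 305 nt, at 7996 to 8300 and again at 10882 to 11186. Over the whole transcript, 28.0% of start positions begin a 30-nt word that occurs at least once more in the same transcript. These positions run from 2538 to 14030. They are patchy, making up 91.9% of the kilobase from 8001 to 9000 but 0.8% of the one from 9001 to 10000. In the first 2000 nt and in the part after 15000 they make up 0%. How the authors treated reads that match several places was not stated.

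The listed peaks were confined to a small part of the locus. The first peak began at 9074679 and the last ended at 9093617, a span of 18.9 kb that covers 21.5% of the interval. No listed peak lay in the 11.2 kb before it or in the 57.9 kb after it. The next plus-strand peaks outside the interval were 21.6 kb upstream and 264 kb downstream. The span of 18.9 kb stands beside 17.5 kb for exon 5 in GRCm38. With a gap of at most 500 nt between neighbouring midpoints, the largest group was 9076235 to 9079362, with 62 of the 145 peaks. Ahead of it lay a single SRSF2 peak starting 1556 nt earlier and a group of 2 SRSF1 peaks and 1 SRSF2 peak starting 1013 nt earlier. These distances depend on taking the start of that group as the reference. With a gap of 1000 nt all of these peaks fall in the same run, which starts at 9074679. In the GRCm38 transcript the exons before exon 5 are 157 and 188 nt long and start 1599 and 1023 nt before it. These are lengths from different builds set side by side. No peak was assigned to an exon, and whether the early peaks lie in these exons was not tested.

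**Figure D1:**
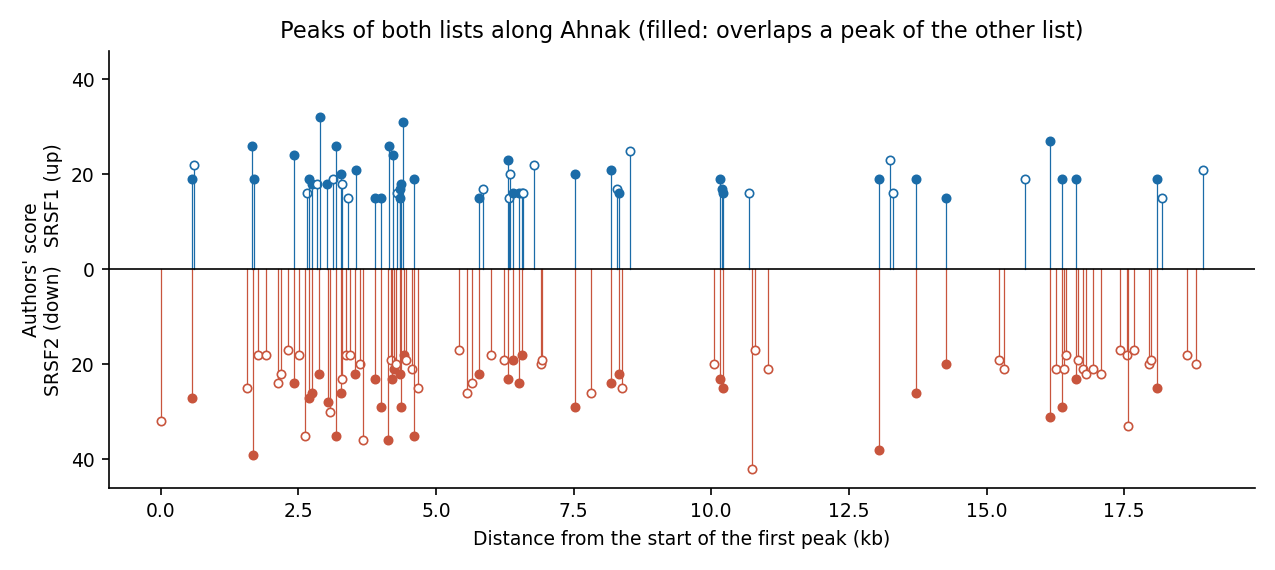
Each stem is 1 peak of Ahnak, placed by its distance in kb from the start of the first peak, with the authors' score (no stated unit) upwards for SRSF1 and downwards for SRSF2. Filled circles mark the 38 SRSF1 and 36 SRSF2 peaks that overlap a peak of the other list; stems crowd between 1.5 and 5 kb and thin out towards 12 kb.

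Along this span the peaks were unevenly spread. Of 19 bins of 1 kb, 4 held at least 15 peaks each and together 72 of the 145 (49.7%). The densest bin, 9078679 to 9079678, had 9 SRSF1 and 13 SRSF2 peaks, and the bin before it 8 and 11. The median bin had 6 peaks of both proteins together, and 2 bins in the middle of the span had none. The proteins shared this profile in outline, with a Pearson r of 0.79 and a Spearman rho of 0.75 across the 19 bins. These bins belong to 1 RNA and its coverage, so the correlation is a description.

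**Figure D2:**
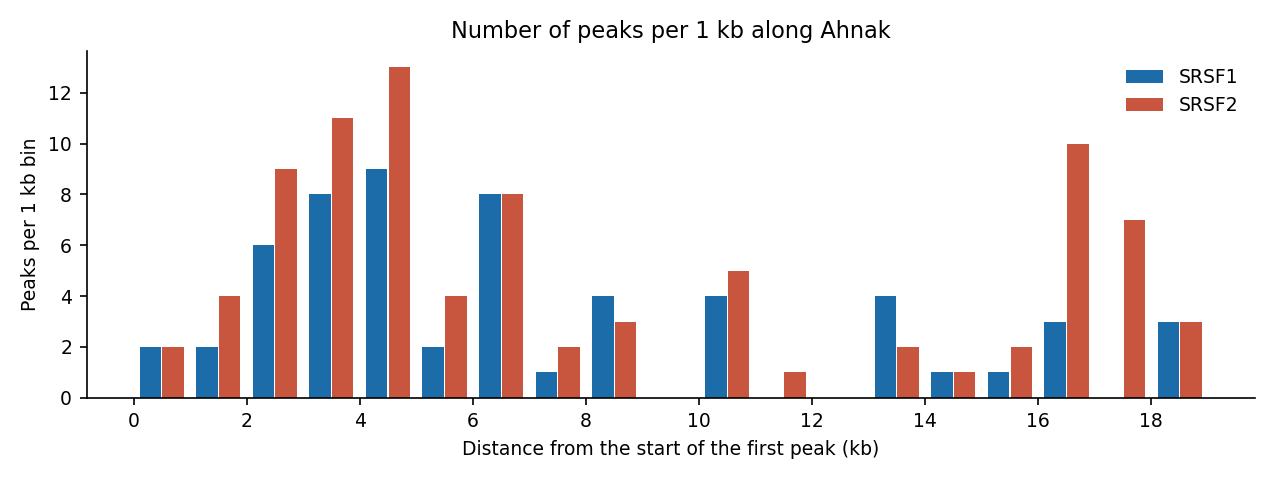
Bars give the number of SRSF1 and SRSF2 peaks in each 1 kb bin, by distance in kb from the start of the first peak. The highest bin holds 9 SRSF1 and 13 SRSF2 peaks, and the bin from 17 to 18 kb holds 0 and 7.

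Cut into 4 equal segments, the span had 66 peaks in the 5′ segment (13.9 per kb), 32 in the next (6.76 per kb), 16 in the following one (3.38 per kb) and 31 in the 3′ segment (6.55 per kb). The 5′ segment thus held 45.5% of the peaks. The longest stretches without a listed peak of either protein were 9085726 to 9087709 (1984 nt) and 9083213 to 9084728 (1516 nt). The authors numbered the peaks of each unit in order. Between the listed neighbours of the longer stretch 2 SRSF1 numbers and 1 SRSF2 number are skipped, and 0 and 2 for the other, so numbered peaks that were not listed may lie there. Whether the sparse middle of the peak span is the repeated part of the exon could not be measured across builds, and the part of repeated sequence in the peak profile was not tested.

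Part of the numbers were skipped. The SRSF1 peaks were numbered up to 80, of which 22 (27.5%) were not listed, and the SRSF2 peaks up to 118, of which 31 (26.3%) were not listed. Over all genic units the shares were 17.6% and 19.9%. Counting every number gave an SRSF1 share of 40.4%, against 40% of the listed peaks.

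SRSF2 had 1.5 peaks for each SRSF1 peak in Ahnak. The SRSF1 share of 40% had an exact 95% interval of 32.0 to 48.5, which includes the 47.5% of both lists together. Among genic units with at least 10 peaks, 2.92% had an interval wholly below that overall share, and Ahnak was not one of them. Raising the lowest score counted to 17 in both lists, which is the lowest SRSF2 score in Ahnak, left 40 SRSF1 and 87 SRSF2 peaks, a share of 31.5% (23.5 to 40.33). That interval lies below 47.5%, but the same limit also brought the share of the whole lists to 40.35%, just above the interval. The limit removed 18 SRSF1 peaks and no SRSF2 peak of Ahnak. It was chosen after seeing the data, and scores may not be comparable between the lists.

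The 3′ segment, from 9088884 to 9093617, held 8 peaks of SRSF1 and 23 of SRSF2, so that SRSF1 made up 25.8% (11.9 to 44.6). The other segments had 27 and 39 peaks (40.9%, 29.0 to 53.7), 15 and 17 (46.9%, 29.1 to 65.3) and 8 of each (50%, 24.7 to 75.3), counted from the 5′ end. The intervals of all 4 segments overlapped one another and were not corrected for their number. In the bin from 9091679 to 9092678 SRSF2 had 7 peaks and SRSF1 had none. SRSF2 had the larger number in 11 bins and SRSF1 in 2.

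Most SRSF1 peaks in Ahnak lay on an SRSF2 peak. Of the 58 SRSF1 peaks, 38 shared at least 1 nt with an SRSF2 peak on the same strand (65.5%, 51.9 to 77.5), against 38.7% of the whole SRSF1 list. Of the 87 SRSF2 peaks, 36 were overlapped by an SRSF1 peak (41.4%, 30.9 to 52.4), against 35.2% of that list. Among the 41 other genic units with at least 100 peaks in both lists together, the median was 59.6% for SRSF1 and 51.8% for SRSF2. Of these units 10 had a higher SRSF1 value than Ahnak and 33 a higher SRSF2 value.

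The midpoint of the nearest SRSF2 peak was within 50 nt for 50 SRSF1 peaks (86.2%) and at most 390 nt away for all 58, with a median of 8.75 nt. Seen from SRSF2, 47 of 87 peaks (54.0%) had an SRSF1 midpoint within 50 nt, with a median of 47.5 nt and a largest distance of 677.5 nt. Peaks of each list were themselves close together, with median spacings of 111 nt for SRSF1 and 106 nt for SRSF2. SRSF1 peaks covered 5.90% of the span and SRSF2 peaks 8.91%. The overlap was lowest in the 3′ segment for SRSF2, where 5 of 23 peaks were overlapped, against 19 of 39 in the 5′ segment. That 3′ segment held only 8 SRSF1 peaks that could overlap them. Of these 8, 5 were overlapped (62.5%), against 53.3% to 74.1% of SRSF1 peaks in the other segments.

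The overlapping peaks formed 40 pairs. In 29 of them (72.5%) the midpoints were within 10 nt, the largest offset was 26 nt, and no pair had the same start and the same end at once. The SRSF2 midpoint lay downstream of the SRSF1 midpoint in 19 pairs and upstream in 21. The pair with the highest smaller score was at 9079044 to 9079110 for SRSF1 (score 31) and 9079037 to 9079065 for SRSF2 (score 29). This SRSF1 peak, with 67 nt, was the widest of either protein in Ahnak. The next pair lay near the 3′ end, at 9090809 to 9090842 (score 27) and 9090811 to 9090841 (score 31). The SRSF1 peaks of the remaining pairs among the top 5 all had a score of 26 and lay in the 5′ segment. One paired SRSF1 at 9076325 to 9076359 with SRSF2 at 9076325 to 9076381 (score 39), near the start of the group of 62 peaks. Another paired 9078807 to 9078830 with 9078782 to 9078825 (score 36). The last paired 9077861 to 9077884 with 9077857 to 9077883 (score 35).

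**Figure D3:**
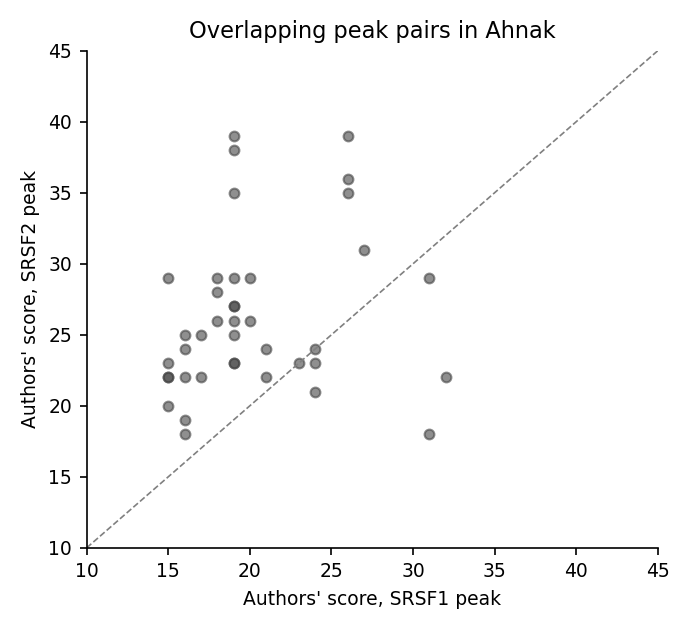
Each point is 1 of the 40 overlapping pairs, with the authors' score of its SRSF1 peak on the x axis and of its SRSF2 peak on the y axis (no stated unit); the dashed line marks equal scores. In 33 pairs the SRSF2 score is the higher one, but the lowest scores of the lists in Ahnak differ too (15 and 17), and scores may not be comparable between the lists.

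Scores in Ahnak were high for these lists. They ran from 15 to 32 with a median of 19 for SRSF1, and from 17 to 42 with a median of 22 for SRSF2, where the median of each whole list was 8. Of all SRSF1 peaks 89.8%, and of all SRSF2 peaks 90.8%, scored below the lowest Ahnak peak of their list. In contrast, 441 SRSF1 peaks and 306 SRSF2 peaks elsewhere scored above the highest one in Ahnak. What the score measures is not stated, and its lowest value differs between host units. Among the 41 other units with at least 100 peaks the median lowest score was 8 for SRSF1 and 9 for SRSF2, and 1 unit had a higher floor than Ahnak in each list. The highest SRSF1 score was 2.13 times the lowest, a smaller ratio than in any of those 41 units, whose median was 3.33. For SRSF2 the ratio was 2.47 and 5 units had a smaller one. A high floor by itself lowers this ratio, so it does not show a narrow range of scores.

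The strongest SRSF1 peak, at 9077551 to 9077586 (score 32), overlapped an SRSF2 peak. The strongest SRSF2 peak, at 9085409 to 9085437 (score 42), overlapped no SRSF1 peak, although an SRSF1 midpoint was 50 nt away. Of the other top SRSF2 peaks, 9076325 to 9076381 (score 39), 9087711 to 9087738 (score 38) and 9078782 to 9078825 (score 36) were overlapped, and 9078347 to 9078374 (score 36) was not. All of the 5 strongest SRSF1 peaks were overlapped. Overlapped peaks had a median score of 19 for SRSF1 and 24.5 for SRSF2, against 17.5 and 20 for the rest. They were also wider, at 19.5 and 23.5 nt against 15 and 14 nt, and a wider peak meets another more easily.

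Peaks without an overlap were found along the whole span, some of them close to a peak of the other list. The strongest SRSF1 peak without an overlap was at 9083182 to 9083212 (score 25), with the nearest SRSF2 midpoint 134.5 nt away, followed by 9087916 to 9087942 (score 23, 204.5 nt). Next came 9075276 to 9075296 (score 22, 37 nt) and 9081444 to 9081471 (score 22, 126.5 nt). After them came 9093592 to 9093617 (score 21, 122 nt), the last peak of the gene. On the SRSF2 side, 9085409 to 9085437 (50 nt) was followed by 9078347 to 9078374 (133.5 nt) and by 9077282 to 9077307 (score 35, 48.5 nt). The next ones were far from any SRSF1 peak, at 9092232 to 9092258 (score 33, 534.5 nt) and 9074679 to 9074702 (score 32, 551.5 nt), the latter being the first peak of the gene.

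Peaks were as narrow as elsewhere, with a median width of 18 nt for SRSF1 and 19 nt for SRSF2, against 19 nt in both whole lists. The narrowest width in either list was 6 nt. In Ahnak 8 SRSF1 peaks (13.8%) and 6 SRSF2 peaks (6.90%) had this width, against 3.53% and 4.25% of the lists. Leaving them out gave an SRSF1 share of 38.2%.

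With both lists pooled, peak midpoints were no more concentrated at the 384 nt repeat than at many other periods. Phase concentration was used as the measure; it is 0 when midpoints are spread evenly over the repeat and 1 when all fall on the same place in it. Runs of peaks with at most 1000 nt between neighbouring midpoints were formed, and the largest, 9074679 to 9083212, held 98 peaks (67.6%) in 8.53 kb. There the concentration at 384 nt was 0.0983, and 36.5% of the periods from 50 to 600 nt gave a higher value. Over the whole span it was 0.0388, with a median over periods of 0.0685. In the run of 98, SRSF1 alone gave 0.236, with 10.2% of periods higher, and SRSF2 alone gave 0.0364, with 86.9% higher. Of 56 other runs with at least 30 peaks, 69.6% had a higher concentration at 384 nt than the pooled run of 98, with a median of 0.137. None of them had more peaks than it. After the 5′ segment, where the peaks are sparser, both lists together gave 0.0733, with a median over periods of 0.0939. There SRSF1 alone gave 0.124, with 62.6% of periods higher, and SRSF2 alone gave 0.123, with 40.7% higher. Of 10440 pairs of midpoints in the span, 531 had a distance within 10 nt of a multiple of 384 nt and 488 within 10 nt of the points midway between multiples. Among the 3081 pairs after the 5′ segment these numbers were 158 and 161. The measure takes no account of copies with another spacing, such as the 378 nt above. Repeated words lie only at 2538 to 14030 of the reference transcript, and peaks could not be placed in it across builds. Midpoints outside the repeats may thus be included, so these values cannot decide whether peaks within the repeats follow the period.

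**Figure D4:**
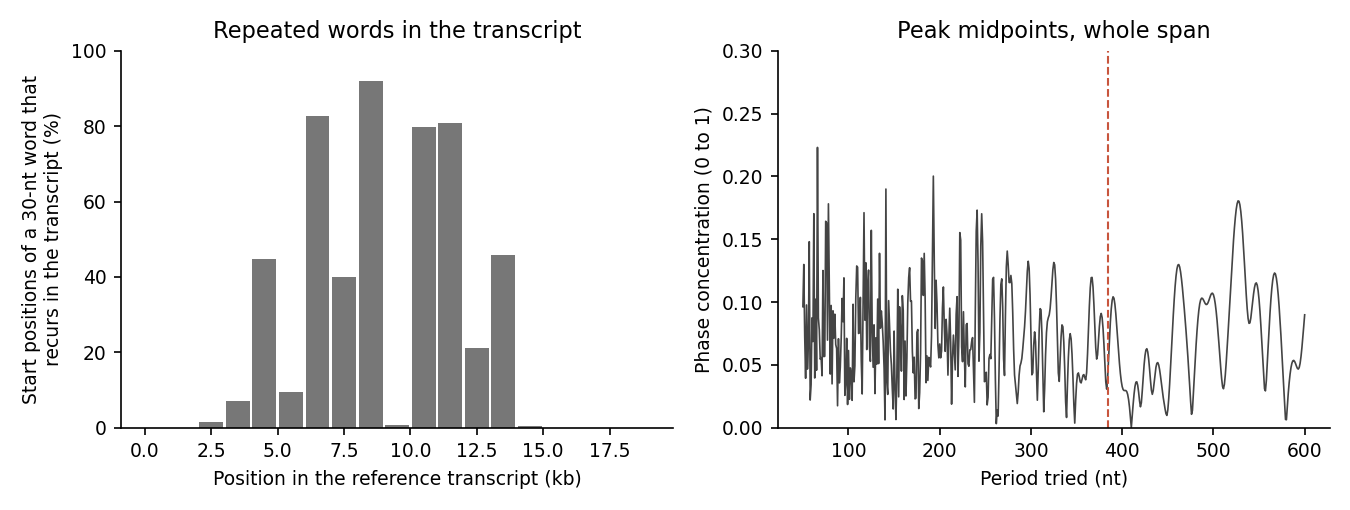
The left panel gives, per kb of the reference transcript, the percentage of start positions whose 30-nt word recurs in that transcript. It varies from bin to bin in the middle, up to 91.9%, and is 0% at both ends. The right panel gives the phase concentration of the 145 peak midpoints at each period from 50 to 600 nt, with a dashed line at 384 nt, where the value is 0.0388.

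Short sequences known as binding motifs of these proteins were counted on the sense strand of the reference transcript, overlapping matches included. GGAGA, a purine-rich motif of SRSF1, occurred 48 times (2.65 per kb), against a median of 1.91 per kb in the longest protein-coding transcript of 19348 other genes, of which 25.5% were higher. GAAGAA, another motif of SRSF1, occurred only 2 times (0.110 per kb, median 0.710), and 83.5% of genes were higher. For SRSF2, GGNG, which overlaps with GGAGA matches, had 16.4 matches per kb (median 17.04, 53.5% of genes higher) and CCNG 24.0 per kb (median 19.2, 31.1% higher). A match is a description of the letters and no binding site, and matches were not placed under peaks.

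Ahnak had more peaks within 10 kb than any other host unit, with 104 of its 145. The highest value among the 42 other units of any kind with at least 100 peaks was 97, and among the 41 genic ones the median was 37. In total number of peaks it ranked 18th of 8738 genic units, 28th by SRSF1 and 14th by SRSF2. Of the 41 other large genic units, only 1 had a shorter distance from first to last peak, and the median was 120 kb. On a fixed grid of 10 kb windows the Ahnak peaks were split, and the window 9070001 to 9080000, which held 66 of them (27 and 39), ranked 6th of 28003. The windows ahead of it were in an unnamed cluster on chromosome 15 (77590001 to 77600000, 91 peaks), another there (82680001 to 82690000, 84 peaks), on the mitochondrial chromosome (1 to 10000, 74 peaks), in a region called nongenic on chromosome 17 (39980001 to 39990000, 72 peaks) and in a cluster on chromosome 19 (minus strand, 5790001 to 5800000, 69 peaks).

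**Figure D5:**
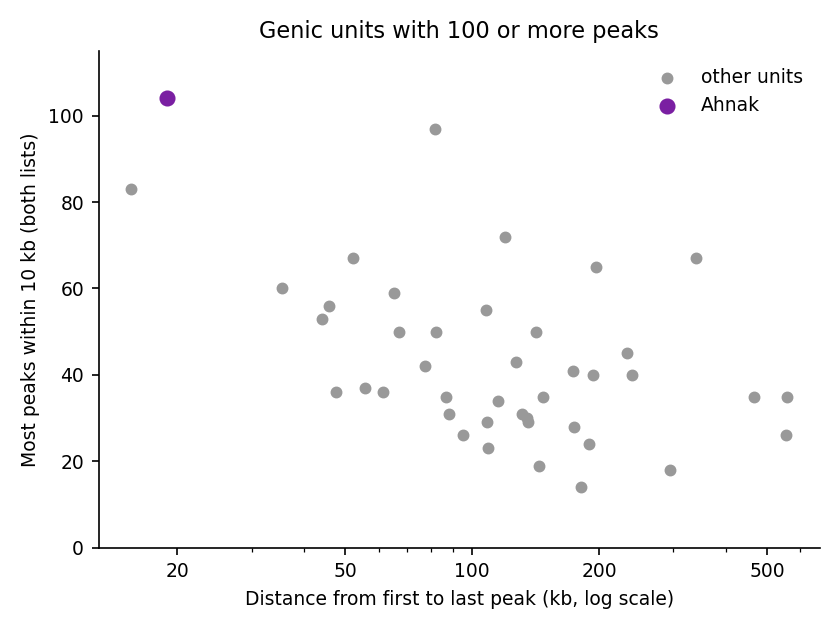
Each point is 1 of the 42 genic host units with at least 100 peaks, with the distance from its first to its last peak (kb, log axis) and the most peaks of both lists within 10 kb. Ahnak, at 18.9 kb and 104 peaks, is the highest point, and 1 unit has a shorter distance.

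The genes with a symbol and most peaks differed from Ahnak in layout. Only units that had a symbol were ranked for this. Large unnamed clusters were left out, as was a unit without a symbol that had 55 SRSF1 and 60 SRSF2 peaks. Dync1h1, the heavy chain of cytoplasmic dynein, had an SRSF1 share of 39.6% and overlap shares of 67.1% and 45.7%, close to those of Ahnak, but its 192 peaks spread over 65.3 kb with at most 59 in 10 kb. Zfhx4, a transcription factor gene, spread 144 peaks over 197 kb and had overlap shares of 41.2% for SRSF1 and 36.8% for SRSF2. Col1a1, a chain of type I collagen that fibroblasts secrete, was the most like Ahnak in density of these 3 genes, with 107 peaks in 15.6 kb and at most 83 in 10 kb. It differed in that 72.7% of its SRSF1 and 78.8% of its SRSF2 peaks were overlapped, with an SRSF1 share of 51.4% (41.5 to 61.2). Its scores started from a similar floor, 18 for SRSF1 and 20 for SRSF2. None of these differences was tested.

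By the numbers of peaks of each protein, the units nearest to Ahnak were 5 unnamed clusters. The nearest, on chromosome 7 (minus strand, 125278529 to 125386829), had 54 SRSF1 and 88 SRSF2 peaks, and the others were on chromosomes 5 (52 and 96), X (57 and 75), 11 (68 and 88) and 3 (70 and 85). They spread over 44.2 to 189 kb, and their lowest SRSF1 scores were 6 to 10, against 15 in Ahnak. Of a list of 12 genes for the family and partners of AHNAK, 3 had a unit with their symbol in these lists. Having such a unit depends on how the authors named units, and the peaks of Ahnak itself bore no symbol. The share over all genes was not computed, so this count is no result about the binding of these genes. S100a10, whose protein binds the carboxyl end of AHNAK, had 3 SRSF1 and 5 SRSF2 peaks, S100a11 had 1 of each, and Actb, cytoplasmic actin, had 9 and 12. Ahnak2, Anxa2, Prx, Dysf, Myof, Cacnb2, Plcg1, Prkca and Smad3 had no unit of their name, and their peaks, if any, are in units without a symbol.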

How the data were processed

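SRSF1 and SRSF2 CLIP-seq of MEFs gave 1 deposited peak list per protein, on mm9 per the submitters' processing notes. No source used here names the aligner, the peak caller or its threshold. The score that the authors deposited for each peak is a whole number whose meaning is not stated, and it may not be comparable between the lists. It was used within a list, except to rank and plot overlapping pairs and for 1 score limit set on both lists. The SRSF1 libraries from siRNA-treated cells were not analysed here. The gene, gene lists and comparisons were chosen with earlier results of these data known. Coordinates are 1-based on mm9. The annotation at hand was of GRCm38, so transcript features are given by position in the transcript only and no coordinate was converted. Symbols were taken from RefSeq (GRCm38.p6).

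Overlap meant at least 1 nt on the same strand and was checked against bedtools 2.31.1. Shares carry exact (Clopper-Pearson) 95% intervals. The overlap, run and phase functions were tested on simulated data. Computation used Python 3.11.15, numpy 2.4.6, scipy 1.17.1 and biopython 1.88. Named items followed a rule: the 3 genes with a symbol and most peaks, the 5 densest windows, the 5 units nearest in peak numbers, a partner list, and the 5 highest peaks, pairs and unpaired peaks. Alternatives covered overlap, merging, score, gap and region, and their effect is given at the end.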

Additional observations from a re-analysis of the deposited data

How the results depend on the processing

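The SRSF1 share of Ahnak stayed within its interval (38.0% to 42.9%) in every setting but the score limit. These were the upper 50% of each list by score, merged peaks, the run of 98 peaks alone and the host unit. The longer list thinned, peaks of over 6 nt and all numbered peaks were also among them. With scores of at least 17 in both lists the share was 31.5%. Its interval then lay below the overall 47.5%, but the whole lists at that limit had 40.35%, just above the interval. The upper 50%, the thinned list and the host unit removed no Ahnak peak, so they say nothing about stability. With midpoints within 50 nt in place of overlap, 86.2% of SRSF1 and 54.0% of SRSF2 peaks had a partner. A gap of 500 nt cut the largest run to 3.13 kb with 42.8% of the peaks, by its construction. The phase concentration moved to 0.236 with SRSF1 alone, 0.0364 with SRSF2 alone and 0.0388 over the whole span. The cause of these moves was not tested. These sets had 42, 56 and 145 peaks, against 98 in the run. Their medians over periods differed too, at 0.120, 0.0784 and 0.0685, against 0.0794 in the run. In the run, the concentration was 0.219 at the period where it was highest, which was picked for its value. The settings with scores of at least 17, over 6 nt, all numbered peaks, the whole span, the part after the 5′ segment and overlap in the run of 98 were chosen after seeing the data. No paired analysis was possible because each protein had 1 library, and leaving out a replicate was not possible for the same reason. Without read depth, the number of peaks cannot be set against the number of reads.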
